A study of Mus musculus with 4 samples.

Results

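The D cyclins (Ccnd1, Ccnd2, Ccnd3), the kinases they activate (Cdk4, Cdk6) and the inhibitors of cyclin-dependent kinases of the CIP/KIP family (Cdkn1a, Cdkn1b, Cdkn1c) and the INK4 family (Cdkn2a, Cdkn2b) were examined in mouse podocytes given extra miR-93. These 10 genes were taken by name from a table of 29286 gene rows. Each had a row of its own, and each had a mean level of at least 1 FPKM (fragments per unit of transcript length and of mapped fragments, so a level per length) over the groups. The podocytes, the epithelial cells that wrap the glomerular capillaries, came from a conditionally immortalised line that carries a thermosensitive T antigen. All cells had been differentiated for 12 days in low-glucose medium at the temperature at which this antigen is inactivated. They then received a miR-93 mimic (50 nM, 2 libraries) or a nontargeting (NT) mimic at the same dose (2 libraries), and poly-A RNA was sequenced 48 hours later. The series was made to find targets of miR-93 in podocytes.

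The deposited table holds 1 pooled FPKM per gene and group, and no value for a single library. The spread between libraries and the depth of each library are therefore unknown, and no difference below has an error or a test. A difference is described by the log2 ratio of FPKM plus 0.1, the miR-93 mimic over the NT mimic, beside the same ratio over the 10766 genes that averaged at least 1 FPKM. A gene is counted as lower or higher when this ratio is past 0.5 in size, which is 1.41-fold. The study's methods speak of biological replicate libraries, and no label tells whether separate cultures were used. In bulk RNA, a lower level in every cell cannot be told apart from a change in which cells are present.

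The conditions carry only numbers in the table, and no label links a number to a mimic. The conditions were assigned from a panel of the study that shows the values of Rps6ka4 under the names of the groups, with 9.68 FPKM for the miR-93 mimic against 14.7 FPKM for the NT mimic. If this reading were wrong every direction below would turn round, and the direction of Rps6ka4 is not independent evidence for it.

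D cyclins bind CDK4 and CDK6 early in G1, and the active kinases phosphorylate the retinoblastoma protein (Rb), which then releases E2F factors that switch on genes for DNA synthesis. INK4 proteins bind CDK4 and CDK6 and keep D cyclins off them, whereas CIP/KIP proteins bind cyclin-CDK complexes, inhibiting CDK2 and also helping D cyclins to assemble with their kinases. Mature podocytes in the glomerulus are out of the cell cycle and are known for p27 and p57, the products of Cdkn1b and Cdkn1c. In the cell line, T antigen binds and inactivates Rb and p53 while it is active. A microRNA pairs through its seed, bases 2 to 8 from its 5′ end, with matching words in 3′ UTRs, and lowers the stability and translation of those mRNAs.

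The sequence of miR-93-5p is shown because all matches below are counted against it. It lies on the minus strand of chr5:138165574-138165596 (RefSeq, GRCm38.p6), with its seed in capitals.
miR-93-5p: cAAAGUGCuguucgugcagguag
Among mouse miRNAs in RefSeq 7 carry this seed, the others being miR-106b-5p, miR-17-5p, miR-20a-5p, miR-20b-5p, miR-106a-5p and miR-6383. The letters searched for on the sense strand of the 3′ UTRs were GCACTTT, the match to bases 2 to 8 (7mer-m8), CACTTTA, the match to bases 2 to 7 followed by an A (7mer-A1), GCACTTTA, which contains both (8mer), and CACTTT, which all of them contain (6mer).

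Of the 10 genes, 4 held a 7-base match in their longest annotated 3′ UTR (GENCODE release M21, matched by gene symbol), and none held an 8mer. The matched stretches are shown with the bases around them, 22 bases each, because they mark the 4 genes that turned out lowest relative to the NT mimic. The match is in capitals.
Ccnd1: cattccatttcaaaGCACTTTt
Ccnd2: attccattagaaaaGCACTTTg
Cdkn1a: ctcagacctgaataGCACTTTg
Cdkn2b: aaatagtttaataacCACTTTA
The match of Ccnd1 lies at bases 925 to 931 after the stop codon in a 3′ UTR of 2676 bases. It is held by the only coding transcript of Ccnd1 with a complete annotated 3′ UTR. The match of Ccnd2 lies at bases 989 to 995 of 5173, in 1 of 3 transcripts with a 3′ UTR. That of Cdkn1a lies at bases 436 to 442 of 1334, in 2 of 4 transcripts. The match of Cdkn2b is the only 7mer-A1 and lies close to the end, at bases 682 to 688 of 755. Which of these 3′ UTRs the podocytes used was not measured.

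The levels of the 10 genes spanned a wide range. With the miR-93 mimic the order from high to low was Cdkn1a, Ccnd1, Ccnd2, Cdkn2a, Cdk4, Cdkn2b, Ccnd3, Cdk6, Cdkn1b and Cdkn1c. With the NT mimic Ccnd1 stood above Cdkn1a, and the other 8 genes kept the same order. Relative to the NT mimic, 7 of the 10 ratios were below 0 and 3 above, with a median of −0.15, beside 7482 below and 3284 above among the 10766 genes, whose median was −0.09. Past the fold limit, Ccnd1 and Cdkn1a were lower and Cdkn1c was higher. Over all genes the limit took 404 genes as lower (3.75%) and 195 as higher (1.81%). After subtraction of the median of all genes these counts became 256 lower and 267 higher, and among the 10 genes Ccnd1 alone stayed lower. Of the 8 genes that averaged at least 10 FPKM, 2 were lower and none higher, where 194 of 5675 genes (3.42%) were lower and 34 (0.599%) higher. With no error on any value, these shares describe the table and do not test the 10 genes.

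**Figure D1:**
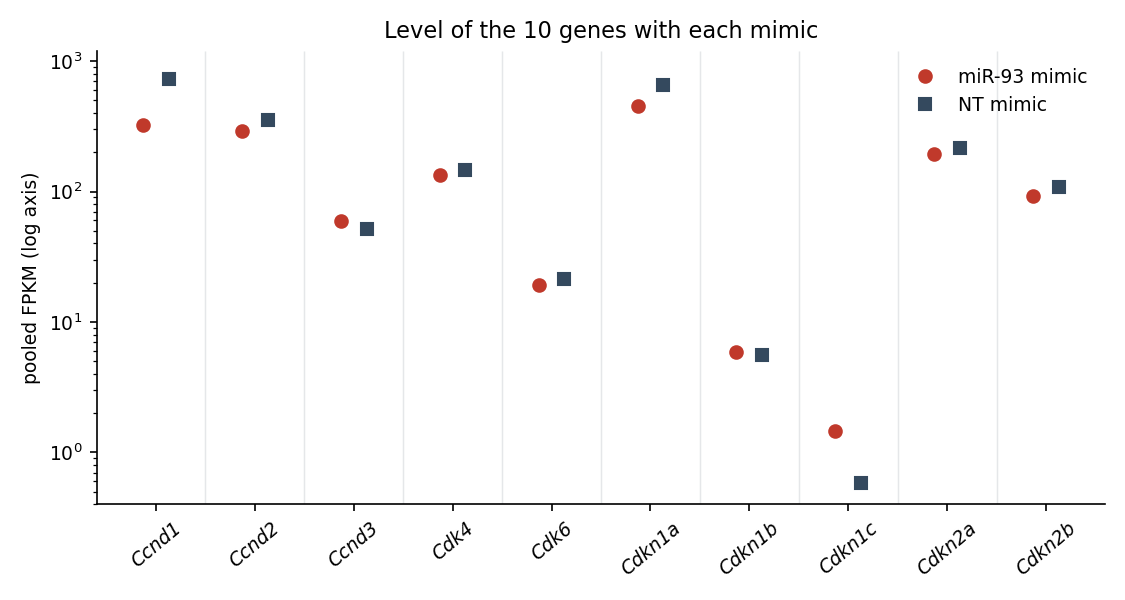
Pooled FPKM of each of the 10 genes on a log axis, with the miR-93 mimic (circles) and the NT mimic (squares), 1 value per group over 2 libraries. The widest gaps are those of Ccnd1 (323 against 723), Cdkn1a (453 against 657) and, at the bottom of the scale, Cdkn1c (1.46 against 0.583).

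The D cyclins differed among themselves. Ccnd1, which encodes cyclin D1, the D cyclin most closely tied to growth factor signals, had 323 FPKM with the miR-93 mimic, against 723 FPKM with the NT mimic. Its log2 ratio was −1.16, a level 2.24-fold lower. Ccnd2, which encodes cyclin D2, had 292 FPKM with the miR-93 mimic, against 353 FPKM with the NT mimic, a log2 ratio of −0.27 that is within the fold limit. Ccnd3, which encodes cyclin D3, a form often retained in differentiated cells, ran the other way, with 59.7 FPKM for the miR-93 mimic and 51.3 FPKM for the NT mimic and a log2 ratio of 0.22. It holds no match to the seed in any of its 7 annotated 3′ UTRs.

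Set beside genes of a similar level (a mean FPKM within 2-fold), Ccnd1 lay at the 1.64th percentile of 152 genes, whose central range from the 5th to the 95th percentile was −0.49 to 0.16. Ccnd2 lay at the 13.0th percentile of 305 genes, inside a range of −0.49 to 0.18. Ccnd3 lay at the 97.1st percentile of 2000 genes, above a range of −0.42 to 0.16. Its small difference thus stood further out among its neighbours in level than that of Ccnd2 did. The difference was 8.42 FPKM, and the row of Ccnd3 overlaps that of Bysl, which had a mean of 7.47 FPKM. Whether Bysl has a part in this difference was not tested. Together the D cyclins summed to 674 FPKM with the miR-93 mimic, against 1127 FPKM with the NT mimic, 1.67-fold lower.

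The make-up of this sum differed as well. Cyclin D1 mRNA formed 47.9% of it with the miR-93 mimic, against 64.2% with the NT mimic. Ccnd2 took 43.3% with the miR-93 mimic, against 31.3% with the NT mimic, and Ccnd3 took 8.86%, against 4.55%. Ccnd1 was thus 1.11 times as abundant as Ccnd2 with the miR-93 mimic, where it was 2.05 times as abundant with the NT mimic. Against Ccnd3 the ratio was 5.40 with the miR-93 mimic, against 14.1 with the NT mimic.

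**Figure D2:**
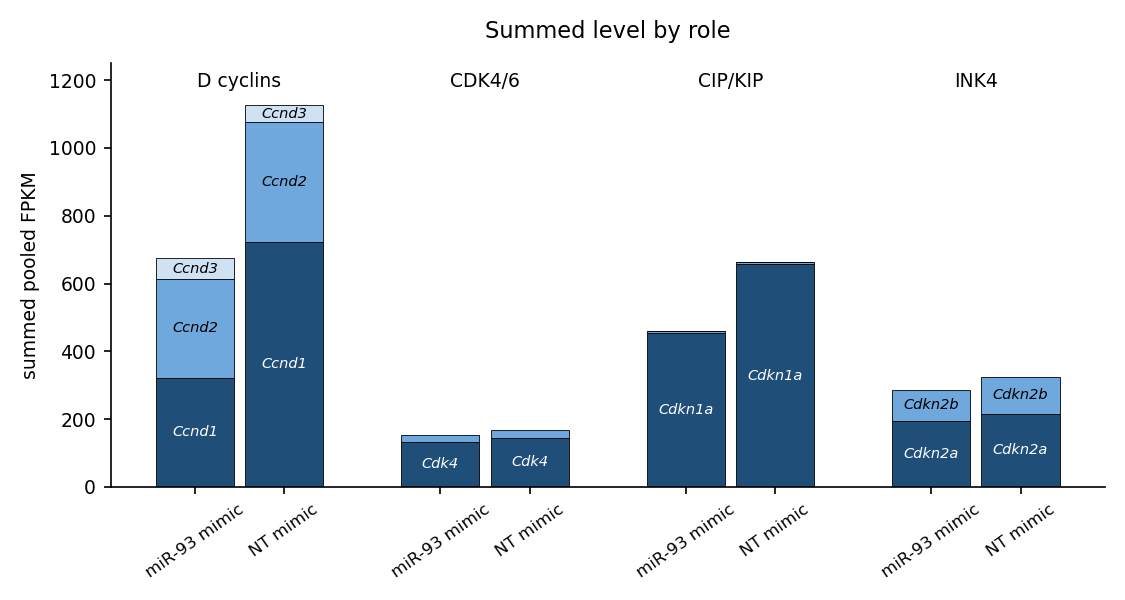
Summed pooled FPKM of the D cyclins, CDK4/6, CIP/KIP and INK4 genes with the miR-93 mimic (left bar of each pair) and the NT mimic (right bar), stacked by gene; bars start at 0 and unlabelled segments are Cdk6, Cdkn1b and Cdkn1c. The D cyclin bars reach 674 and 1127, and the shortfall lies mostly in the Ccnd1 segment.

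The kinases were nearly level. Cdk4, the more abundant partner of the D cyclins here, had 133 FPKM with the miR-93 mimic, against 145 FPKM with the NT mimic (log2 ratio −0.13). Cdk6, the other partner, had 19.4 FPKM with the miR-93 mimic, against 21.3 FPKM with the NT mimic (log2 ratio −0.14). Both ratios lie close to the median of all genes, at the 39.6th percentile for Cdk4 and the 37.6th for Cdk6. The Cdk4 level was 6.86 times that of Cdk6 with the miR-93 mimic and 6.81 times with the NT mimic. Cdk6 has the longest 3′ UTR of the 10 genes, 10217 bases, with 6 scattered 6mers and no 7-base match, and Cdk4 holds no match in its 899 bases.

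Of the CIP/KIP genes, Cdkn1a dominated. It encodes p21, an inhibitor that p53 induces, and it had 453 FPKM with the miR-93 mimic, against 657 FPKM with the NT mimic. The log2 ratio was −0.54, or 1.45-fold lower, just past the limit, and it became −0.45 once the median of all genes was subtracted. Among 141 genes of similar level Cdkn1a lay at the 4.61st percentile, slightly below their central range (−0.50 to 0.16). Cdkn1a made up 98.4% of the CIP/KIP sum with the miR-93 mimic, against 99.1% with the NT mimic. Since Ccnd1 differed by more, Cdkn1a had 1.40 times the FPKM of Ccnd1 with the miR-93 mimic, where it had 0.908 times with the NT mimic.

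Cdkn1b, which encodes p27, had 5.90 FPKM with the miR-93 mimic, against 5.54 FPKM with the NT mimic (log2 ratio 0.09), and holds a single 6mer in a 3′ UTR of 3439 bases. Cdkn1c, which encodes p57 and is expressed mainly from the maternal allele, had 1.46 FPKM with the miR-93 mimic, against 0.583 FPKM with the NT mimic. Its log2 ratio of 1.19 was the highest of the 10, but the level was low: its mean of 1.02 FPKM passed the filter of 1 only through the miR-93 mimic, so the gene could only be counted because it was higher there. Genes at that level scattered widely, from −0.53 to 0.77 between the 5th and 95th percentiles of 1045 genes. Cdkn1c lay above that range, at the 96.9th percentile, a place that the filter also favours. With a pseudocount of 1 in place of 0.1 its log2 ratio was 0.63. Both genes that are known from podocytes in the glomerulus were thus far below Cdkn1a in these cells.

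The INK4 genes lie next to each other on chromosome 4 (build mm9), Cdkn2a at 88920376 to 88940523 and Cdkn2b at 88952197 to 88956941. Cdkn2a gives rise to p16INK4a, a CDK4/6 inhibitor, and through another first exon and reading frame to p19ARF, which stabilises p53, and the table gives a single value for the locus. It had 195 FPKM with the miR-93 mimic, against 216 FPKM with the NT mimic (log2 ratio −0.15). Cdkn2b encodes p15INK4b, a CDK4/6 inhibitor induced by TGF-β, and had 92.0 FPKM with the miR-93 mimic, against 109 FPKM with the NT mimic (log2 ratio −0.25). Neither was past the limit, and both lay inside the central range of genes of similar level, Cdkn2a at the 39.6th percentile of 531 genes and Cdkn2b at the 15.1st of 1149. The ratio of Cdkn2a to Cdkn2b was 2.11 for the miR-93 mimic, against 1.98 for the NT mimic. When the longest annotated 3′ UTR of each of the 10 genes is taken, that of Cdkn2a is the shortest, 264 bases, with no match.

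**Figure D3:**
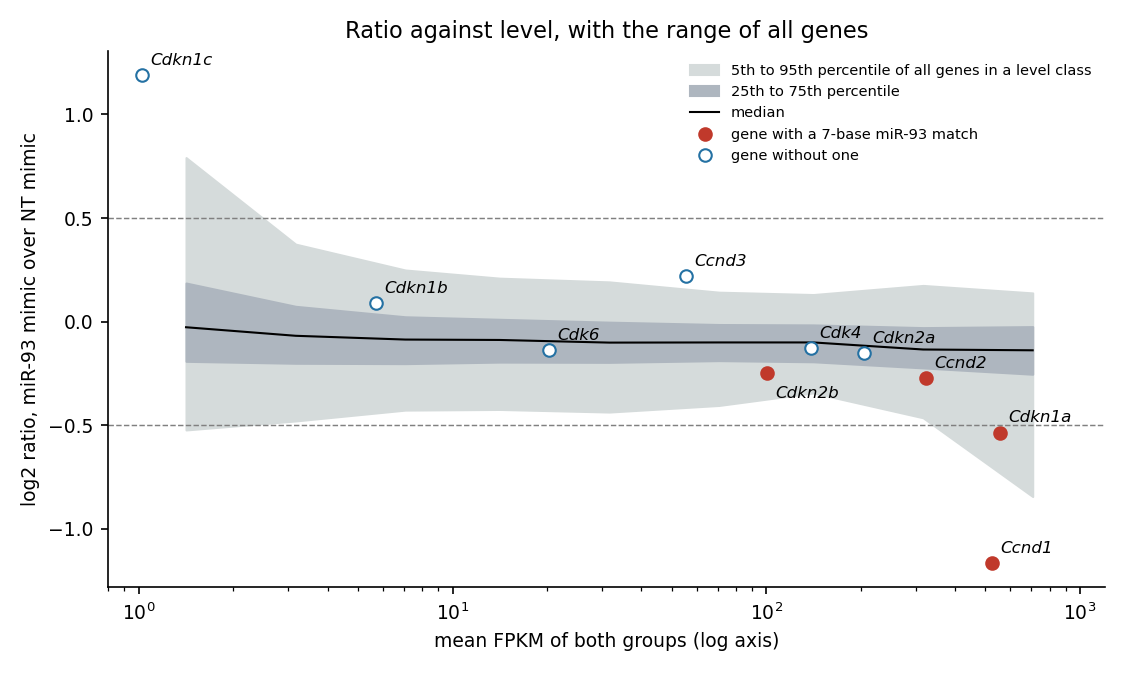
Log2 ratio of pooled FPKM plus 0.1, miR-93 mimic over NT mimic, against the mean FPKM of both groups (log axis), for the 10 genes, over the range of all genes that averaged at least 1 FPKM; shaded bands join the percentiles of classes of level, and dashed lines mark ±0.5. Ccnd1 (−1.16) lies below the 5th percentile of its class, Cdkn1a (−0.54) inside the band of its class, which is wider on the low side than the range of the 141 genes within 2-fold of its level, and Cdkn1c (1.19) at the low end of the scale, where the band is widest.

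When the longest annotated 3′ UTR was taken, the genes with and without a 7-base match separated by ratio. The 4 with a 7-base match had the 4 lowest ratios, from −1.16 to −0.25 with a median of −0.40. The 6 without one ran from −0.15 to 1.19 with a median of −0.02, but they include Cdkn1c, which passed the filter only through the group where it was higher. Without Cdkn1c, left out after the values had been seen, the other 5 ran from −0.15 to 0.22 with a median of −0.13. In the 10015 genes with a 3′ UTR of at least 30 bases, 2254 (22.5%) held a match of 7 or 8 bases. Their median log2 ratio was −0.13, 8.65% of them were lower and 0.488% higher, against a median of −0.08, 2.35% lower and 1.87% higher among the 5790 genes (57.8%) with no match. By class, the median was −0.26 for 8mers (4.59% of genes), −0.14 for 7mer-m8 (10.5%), −0.08 for 7mer-A1 (7.41%) and −0.06 for 6mers (19.7%). The share counted as lower was 23.3% for 8mers, 6.65% for 7mer-m8, 2.43% for 7mer-A1 and 1.62% for 6mers. The share higher was 0.435%, 0.380%, 0.674% and 1.83% in the same order. None of the 10 genes holds an 8mer. The 5790 genes with no match exclude 6mers, whereas the 6 genes above include Cdk6 and Cdkn1b, which hold 6mers. A match is a description of the letters and not a measured site.

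Within their own class the 4 genes took different places. Among 1052 genes whose best match was a 7mer-m8, with a 5th to 95th percentile range of −0.55 to 0.19, Ccnd1 lay at the 0.238th percentile, Cdkn1a at the 5.56th and Ccnd2 at the 26.6th. Ccnd1 was therefore far lower than most genes that hold the same 7 bases, and Ccnd2 was not. Cdkn2b lay at the 15.0th percentile of 742 genes with a 7mer-A1. If only the shortest annotated 3′ UTR of each gene is counted, 2 of the 10 genes, Ccnd1 and Cdkn2b, still hold a 7-base match. Cdkn1a (−0.54) and Ccnd2 (−0.27) then count as genes without one, although their ratios lie below that of Cdkn2b (−0.25). The separation by ratio is thus lost with that choice.

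The stretches of Ccnd1 and Ccnd2 shown above share more than the seed match. Both hold the 8 bases attccatt upstream of it, while no other pair of the 4 windows shares more than 4 bases there. Among 1512 genes with a match to bases 2 to 8, 2 (0.132%) hold these 8 bases within the 14 bases upstream, and they are Ccnd1 and Ccnd2. This stretch was noticed after the sequences had been seen and was taken from these 2 windows, so both genes had to be counted. The share therefore does not measure how rare such sharing is. The ratios of the pair were −1.16 and −0.27.

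**Figure D4:**
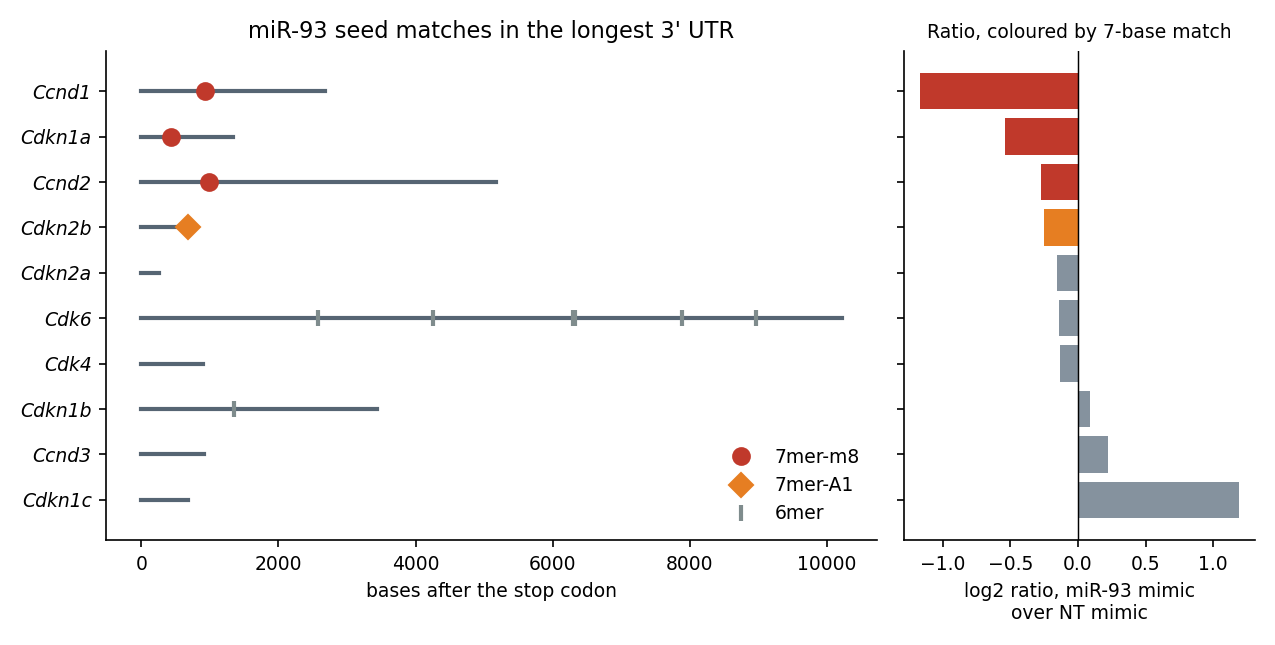
Left, the longest annotated 3′ UTR of each of the 10 genes, drawn to scale in bases after the stop codon, with matches to the miR-93 seed by class; right, the log2 ratio of pooled FPKM plus 0.1, miR-93 mimic over NT mimic, coloured by the class of a 7-base match and grey without one. Genes run from the lowest ratio (Ccnd1, −1.16) at the top to the highest (Cdkn1c, 1.19), and the 4 with a 7-base match take the top 4 places.

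Ccnd1 also stood out among abundant mRNAs. Among 650 genes that averaged at least 100 FPKM, the miR-93 mimic had 19 lower and 3 higher, and Ccnd1 had the fourth lowest ratio. The 3 below it were Snord35b, a small nucleolar RNA (listed at 0 against 758 FPKM), Sprr2a2 (listed at 0 against 450 FPKM) and AB056442 (5.71 against 999 FPKM), in each case the miR-93 mimic first. Cdkn1a took place 18, Ccnd2 place 82, Cdkn2b place 112, Cdkn2a place 252 and Cdk4 place 291.

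A list of 50 other genes that act around the G1/S transition gives the setting of these values, and 44 of them had a mean FPKM of at least 1. Of these 2 were lower, 1 was higher and 41 lay between, with a median log2 ratio of −0.07. These shares, 4.55% lower and 2.27% higher, are near those over all genes (3.75% and 1.81%), so the genes named next describe the list and do not set it apart. E2f1, a transcription factor held back by Rb, had 4.98 FPKM with the miR-93 mimic, against 10.1 FPKM with the NT mimic and holds a 7mer-m8. Fbxo31, the substrate receptor of a ubiquitin ligase that acts on cyclin D1, had 5.57 FPKM with the miR-93 mimic, against 8.48 FPKM with the NT mimic (log2 ratio −0.60, 8mer). Bbc3, a pro-apoptotic p53 target, was the gene that was higher, with 16.9 FPKM for the miR-93 mimic and 11.6 FPKM for the NT mimic (log2 ratio 0.53).

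By role, the pocket proteins and E2F factors had 1 of 7 lower and none higher. Besides E2f1 their most abundant members were E2f4 and Rb1, the gene for Rb itself. E2f4 had 26.5 FPKM with the miR-93 mimic and 29.96 FPKM with the NT mimic, and holds no match. Rb1 had 14.5 and 13.4 FPKM in the same order, and holds a 7mer-m8. Of 7 genes for the degradation of D cyclins and CIP/KIP proteins, Fbxo31 alone was past the limit. Cul1, the scaffold of the SCF ubiquitin ligases, had 25.9 FPKM with the miR-93 mimic and 29.2 FPKM with the NT mimic, and Cks1b, a cofactor in p27 degradation, had 25.8 and 23.0 FPKM in that order. None of 4 E, A and B cyclins and their kinases was past the limit. Cdk2, which holds a 7mer-m8, had 4.51 FPKM with the miR-93 mimic and 4.62 FPKM with the NT mimic. Cdk1 had 3.37 and 3.28 FPKM in that order.

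The CDK activators (5 genes) held none past the limit, and Cdc37, a chaperone that delivers CDK4 to HSP90, had 95.9 FPKM with the miR-93 mimic and 102 FPKM with the NT mimic. Of the other INK4 genes, Cdkn2c, which encodes p18INK4c, had 7.39 FPKM with the miR-93 mimic, against 5.95 FPKM with the NT mimic (log2 ratio 0.31), and Cdkn2d was under 1 FPKM. Of 7 E2F target genes of S phase none was past the limit, and their median was −0.23. The most abundant were Rrm2, a subunit of ribonucleotide reductase, and Pcna, the sliding clamp of DNA polymerases. Rrm2, which holds a 7mer-m8, had 18.9 FPKM with the miR-93 mimic and 26.0 FPKM with the NT mimic (log2 ratio −0.46). Pcna, with no match, had 12.4 and 14.5 FPKM in the same order (log2 ratio −0.23). Mki67, a marker of cycling cells, was near the filter in both groups, with 1.06 FPKM for the miR-93 mimic and 1.01 FPKM for the NT mimic.

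Cdkn1a is itself a p53 target, and the 13 genes of p53 and its targets had a median log2 ratio of −0.02, with none lower and Bbc3 higher. Trp53, the gene for p53, had 32.5 FPKM with the miR-93 mimic, against 34.1 FPKM with the NT mimic. Ccng1, which encodes cyclin G1 and holds a 7mer-m8, had 358 FPKM with the miR-93 mimic, against 451 FPKM with the NT mimic (log2 ratio −0.33), the lowest of the list. Phlda3, a repressor of AKT, had 194 FPKM with the miR-93 mimic and 198 FPKM with the NT mimic. The ratio of Cdkn1a, −0.54, was below that of each of the 13.

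**Figure D5:**
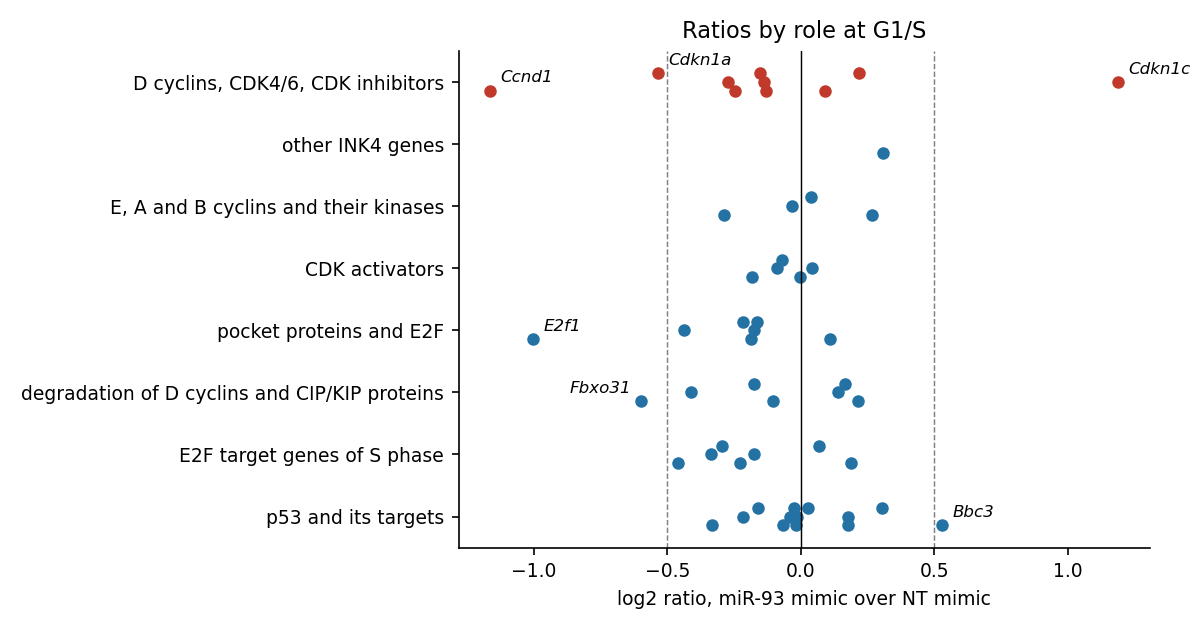
Log2 ratio of pooled FPKM plus 0.1, miR-93 mimic over NT mimic, for the 10 genes (red) and 44 other G1/S genes by role (blue), each point a gene averaging at least 1 FPKM; points are offset vertically for legibility and dashed lines mark ±0.5. Named points are past the limit: Ccnd1, Cdkn1a, E2f1 and Fbxo31 on the low side and Cdkn1c and Bbc3 on the high side.

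The cells carried some podocyte markers and lacked others. Of 10 podocyte markers 6 reached 1 FPKM, and the 10 summed to 420 FPKM with the miR-93 mimic and 425 FPKM with the NT mimic, mostly from Actn4 and Synpo. Nphs1, for nephrin, had 0.164 FPKM with the miR-93 mimic and 0.0387 FPKM with the NT mimic, and Tcf21 was listed at 0 in both. Endothelial markers (0 of 5 at 1 FPKM) summed to 0.256 FPKM with the miR-93 mimic and 0.232 FPKM with the NT mimic. Mesangial markers (2 of 4) summed to 21.4 and 20.3 FPKM, tubule markers (1 of 5, Lrp2) to 32.1 and 48.1 FPKM, and leukocyte markers (2 of 7) to 8.17 and 6.32 FPKM, in the same order. Of the markers at 1 FPKM or more, Lrp2 (31.7 against 47.5 FPKM) and the podocyte gene Wt1 (2.06 against 1.42 FPKM) were past the limit, the miR-93 mimic first, and their part in the values above was not tested. The level of Wt1 was low, and its log2 ratio of 0.51 lay inside the range of genes averaging 1 to 2 FPKM. That range was −0.52 to 0.79 between the 5th and 95th percentiles. The rows of 3 of the 10 genes overlap another gene, and reads of the pair cannot be told apart without strand: LOC100503188 beside Ccnd1 (mean 0.530 FPKM), 9330179D12Rik beside Ccnd2 (mean 0.223 FPKM) and Bysl beside Ccnd3 (mean 7.47 FPKM).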

How the data were processed

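Groups and replicate numbers came from the sample titles. Per the labels and the study's methods, poly-A libraries (TruSeq, taken from general knowledge as not recording strand) were sequenced as paired ends, checked with FastQC and Trimmomatic, aligned with TopHat2 2.0.4 (mm9) and quantified with Cufflinks and Cuffdiff2 (versions: not given in the sources used here). As deposited by the authors, the values are FPKM that Cuffdiff2 had normalised and pooled per group. The table's log2 fold changes, test statistics, p-values and q-values and 4 shorter sheets hold the authors' own comparison and were not used. All 10 genes had the status OK.

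Rows without a gene name (3650), with several names (287) or with a name turned into a date (22), and loci under 200 bases, were left out. The measure was log2 of FPKM plus 0.1, for genes averaging at least 1 FPKM, and a limit of 0.5, the fold limit of the study's methods. As 1 pooled value per group allows no test, counts are set beside those over all genes. 3′ UTRs of GENCODE M21 (GRCm38) were matched by symbol for 10015 genes (93.0%), 1052 of them by an older symbol, and no coordinate was moved between builds. The steps were tested on simulated data (Python 3.11.15, pandas 2.3.3, numpy 2.4.6). Alternatives were the pseudocount, the filter, the limit, centring on the median and the choice of 3′ UTR. The text names all 10 genes, of each other G1/S list those past the limit and up to 2 more with the highest mean FPKM, others being chosen after their values were seen, and the 5 lowest ratios among genes of at least 100 FPKM, except for items that are not reported here. The genes and lists were chosen with earlier results of these data known.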

Additional observations from a re-analysis of the deposited data

How the results depend on the processing

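The counts past the limit moved with the settings. Among the 10 genes the count that was lower (2) became 1 after centring on the median of all genes and 1 with a limit of 1 on the log2 scale, and the count that was higher (1) became 0 with a filter of 5 FPKM. Of the single genes' values only that of Cdkn1a changed side of the limit, at −0.45 after centring. Among the other G1/S genes the count higher (1) became 0 with a pseudocount of 1, 2 without a filter, 0 with a limit of 1 and 3 with a limit of 0.3, and the count lower (2) became 1 with a limit of 1 and 7 with a limit of 0.3. Over all genes the count higher (195) became 121 with a pseudocount of 1, 1133 without a filter, 53 with a filter of 5 FPKM, 267 after centring, 62 with a limit of 1 and 490 with a limit of 0.3. The count lower (404) became 273 with a pseudocount of 1, 631 without a filter, 260 with a filter of 5 FPKM, 256 after centring, 46 with a limit of 1 and 1337 with a limit of 0.3. The count of the 10 genes with a match of 7 or 8 bases (4) became 2 in the shortest 3′ UTR and 0 when 8mers alone were counted. The balance over all genes thus turned to more higher than lower after centring, without a filter and with a limit of 1. The ratios of the 10 genes, recomputed with a pseudocount of 1, with none and after centring, kept their signs. No paired analysis was possible because the table holds no value for a single library, and for the same reason no library could be left out and no depth is known.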
